A study of Mus musculus with 9 samples.

Results

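The interferon-stimulated genes described here are 49 mouse genes that type I interferon is known to induce, taken from a written list and kept where the RNA-sequencing count table held 10 or more counts in at least 3 of 9 libraries. All 49 listed genes matched 1 Ensembl identifier each, and all 49 met that minimum. They were also all among the 19357 genes tested, out of 55450 genes in the table. That minimum used no difference between genotypes, but the list was written with earlier results of these data known, so what follows describes the genes and does not test the list. The list sorts into 10 groups by role, which are the factors of the ISGF3 complex (2 genes), ISG15 and its conjugation (6), the IFIT (5), OAS (7) and IFITM (3) families, other antiviral effectors (8), interferon-inducible GTPases (5), the PARP and DTX3L genes (4), TRIM and nuclear body genes (3) and other interferon-induced genes (6).

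The libraries came from EYFP+ live cells sorted from the mammary glands of adult nulliparous mice of 3 genotypes, with 3 libraries each. Control mice were lsl-EYFP;K8CreERT2, the second genotype was LATS1/2f/f;lsl-EYFP;K8CreERT2, and the third carried the alleles of the second together with Sox9f/f. They are called by their labels control, LATS1/2-KO and LATS1/2-Sox9-KO. Every animal, controls included, received 5 daily doses of 2 mg of tamoxifen, which activates the Cre recombinase, and cells were sorted 7 days after the last dose. The Krt8 promoter directs this Cre to luminal epithelial cells, where it removes floxed DNA and switches on the EYFP reporter, so the sort takes recombined cells and their progeny. Single cells were gated by light scatter, then on the live-cell dye Calcein blue and on EYFP. The control libraries held between 44167762 and 47003587 counts, the LATS1/2-KO libraries between 50508666 and 61745346, and the LATS1/2-Sox9-KO libraries between 55503365 and 61967651. The labels number the libraries of a group but do not say that they came from separate mice, so p-values measure the spread between these samples, which may be technical.

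Type I interferons are secreted proteins made when sensors detect viral or misplaced nucleic acid. They bind the IFNAR1 and IFNAR2 receptor, whose kinases JAK1 and TYK2 phosphorylate transcription factors of the STAT family. STAT2 and IRF9 are subunits of the resulting complex ISGF3, which enters the nucleus and binds the interferon-stimulated response element, a promoter sequence built from spaced GAAA repeats. The genes switched on in this way degrade viral RNA, block its translation, tag proteins with ISG15, restrict viral entry and exit, and feed back on the pathway. Epithelial cells both make and answer type I interferon, and the mammary gland carries macrophages and other leukocytes that do so as well.

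The element is shown first because it is the known mark of such genes that the rule did not use. Promoter sequences from RefSeq on GRCm38.p6, from 250 bases before to 50 bases after the start of a transcript, were found for 40 of the 49 genes. Its core, GAAA followed by any 2 bases and a further GAAA, searched on both strands, was in a promoter of 20 of these 40 genes (50%), compared with 1079 of 27025 genes in the table (3.99%) and 1131 of 32851 promoters (3.44%). The core of the gamma-activated site, TTCNNNGAA, which can overlap the first core in a sequence, was in 9 of 40 (22.5%), compared with 9.55% of all genes and 8.3% of all promoters. A match describes letters in the window and not a bound site. The following 60-base windows, printed along the strand of the gene, hold matches of 7 genes whose values carry the results below. Capitals mark the core, which reads TTTC, 2 bases and TTTC where it lies on the other strand.
Isg15: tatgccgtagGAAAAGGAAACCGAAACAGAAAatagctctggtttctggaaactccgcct
Ifit1: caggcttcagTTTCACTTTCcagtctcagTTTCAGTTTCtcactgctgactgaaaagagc
Ifit1bl1: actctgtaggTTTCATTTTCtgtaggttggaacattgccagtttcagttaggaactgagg
Ifit3: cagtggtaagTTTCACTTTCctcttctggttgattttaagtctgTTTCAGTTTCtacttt
Oas3: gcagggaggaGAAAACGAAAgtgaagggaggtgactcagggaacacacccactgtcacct
Rsad2: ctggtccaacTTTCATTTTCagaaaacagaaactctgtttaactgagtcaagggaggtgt
Stat2: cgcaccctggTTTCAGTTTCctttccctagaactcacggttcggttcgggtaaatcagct
The Isg15 window lies at chr4:156200847-156200906 on the minus strand, and its first base is 88 bases before the start of the transcript. It holds 3 overlapping matches in an unbroken run. The Ifit1 window (chr19:34640775-34640834, plus strand) and the Ifit3 window (chr19:34583363-34583422, plus strand) hold 2 separate matches each, and the window of Ifit3b (chr19:34607759-34607818, plus strand) reads the same as that of Ifit3. The windows of Ifit1bl1 (chr19:34602023-34602082, minus strand), Oas3 (chr5:120777685-120777744, minus strand), Rsad2 (chr12:26456523-26456582, minus strand) and Stat2 (chr10:128270266-128270325, plus strand) hold 1 match each. A second promoter of Ifit1bl1 (chr19:34599378-34599677, minus strand) holds 1 further match, and its window is not printed. Of the 34 matched genes that were higher in LATS1/2-Sox9-KO than in control 18 held the core (52.9%), and of the other 6 matched genes 2 did, Stat2 and Ifitm2.

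The targeted genes were examined before the list. Lats1, a Hippo pathway kinase, gave normalized counts, which are counts scaled to the mean effective library size, of 5672, 5929 and 5940.4 in the control libraries, 2090.1, 1923 and 2336 in those labelled LATS1/2-KO and 2058, 1844 and 1709 in those labelled LATS1/2-Sox9-KO. It was lower by these labels, with log2 fold changes over control of -1.47 ± 0.11 and -1.64 ± 0.11 (adjusted p 6.24e-06 and 2.47e-06). Lats2 went against the labels as a gene-level count, with 1039, 865 and 1219.7 in control, 1256, 1434 and 1723 in LATS1/2-KO and 1957, 1580.4 and 1239.7 in LATS1/2-Sox9-KO, so the deletion is not visible in it (log2 fold change 0.50 ± 0.20, adjusted p 0.0566, and 0.61 ± 0.20, adjusted p 0.0237). Without control replicate 1, control replicate 2 or LATS1/2-Sox9-KO replicate 1, the last adjusted p was 0.0586, 0.0914 or 0.0785. The first passed as higher in 7 of 17 alternatives, with adjusted p from 0.0339 to 0.189 over all 17. Sox9 counted 23313, 19948 and 21534 in control, 7205, 9506 and 12433 in LATS1/2-KO and 8812, 6756 and 6459.8 in LATS1/2-Sox9-KO libraries. It was therefore lower than control also under the label in which Sox9 was not floxed, with a log2 fold change of -1.15 ± 0.19 (adjusted p 0.000646), and it did not pass the test between the 2 deletion labels (-0.40 ± 0.19, adjusted p 0.247). These values sum reads over whole genes, and deleted exons were not analysed here. Groups are for this reason called by what the libraries are labelled.

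The luminal identity given by the sort was checked against its markers. Krt8 and Krt18, keratins of luminal cells, had normalized counts of at least 168814 and 239706 in each of the 9 libraries and were higher in both deletion labels over control. Of the 12 luminal markers these 2 alone were higher, while 7 were lower in LATS1/2-KO and 8 in LATS1/2-Sox9-KO over control, with median log2 fold changes of -0.89 and -1.55. The 2 higher genes were 16.7% of the list, compared with 28.6% and 29.3% of all tested genes in the 2 comparisons. The lower genes were 58.3% and 66.7%, compared with 27.0% and 28.6%. Among the lower luminal markers were the hormone receptor genes Esr1 (-3.50 and -3.67), Pgr (-5.91 and -9.34) and Prlr (-4.81 and -6.30), and Foxa1 (-3.56 and -3.78) and Gata3 (-2.39 and -2.36), which encode luminal transcription factors. The basal keratin Krt14 counted 909, 501 and 606 in control, 252969, 140251 and 139506 in LATS1/2-KO and 117088, 239974 and 349679 in LATS1/2-Sox9-KO libraries, and was higher in both deletion labels (log2 fold change 8.04 ± 0.53, adjusted p 3.68e-06, and 8.45 ± 0.54, adjusted p 2.04e-06). The 6 basal markers did not move as 1. Over control 2 (33.3%) were higher and 2 (33.3%) lower in LATS1/2-KO, and 3 (50%) higher and 3 (50%) lower in LATS1/2-Sox9-KO. The shares of all tested genes were 28.6% and 27.0%, and 29.3% and 28.6%. In bulk samples such as these, fewer cells expressing a gene and less RNA per cell cannot be told apart. LATS1/2-Sox9-KO replicate 1 stood apart from the rest for the 49 genes. It was the highest of its group in 47 of the 49 genes and the highest of all 9 libraries in 46, compared with 40.9% and 10.9% of all tested genes. Leaving it out moved the fold of 10 genes over control and of 10 genes over LATS1/2-KO by more than 1.5 times, and these are given with both values below.

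Most of the 49 genes were higher in both deletion labels than in control, and higher again in the libraries labelled LATS1/2-Sox9-KO than in those labelled LATS1/2-KO. Genes were called at an adjusted p of at most 0.05 in the quasi-likelihood test of edgeR, adjusted by Benjamini and Hochberg's method over the 19357 tested genes. In LATS1/2-KO over control, 35 of the 49 genes were higher and 4 were lower, whereas of all tested genes 28.6% were called higher and 27.0% lower, 55.6% in all. In LATS1/2-Sox9-KO over control, 42 were higher and 2 were lower, with a background of 29.3% and 28.6%, 57.9% in all. These counts over control include Ifit1bl1 and Ifit3b as higher in both labels and Ifitm1 as lower in LATS1/2-Sox9-KO. Those genes met the count minimum only through the groups in which they were high, as given below. Their calls over control are therefore counted here without being a test. In LATS1/2-Sox9-KO over LATS1/2-KO, 35 were higher and 0 were lower, with a background of 3.20% and 3.35%, 6.56% in all. The 0 lower genes of the last comparison remained 0 at an unadjusted p under 0.05 and in DESeq2. There DESeq2 called 44 of the 49 genes higher, and 5.89% of all genes it tested. The first and second comparisons share the control libraries, and the third shares libraries with each of them.

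The median log2 fold change of the 49 genes was 1.63 in LATS1/2-KO over control, 3.42 in LATS1/2-Sox9-KO over control and 1.46 in LATS1/2-Sox9-KO over LATS1/2-KO. Over all tested genes the medians were 0.039, 0.013 and -0.015. At a fold change above 2, 34 genes were higher and 1 lower in the first comparison (background 17.0% and 17.5%), 40 higher and 1 lower in the second (17.8% and 19.6%), and 32 higher and 0 lower in the third (1.54% and 2.14%). The 1 lower gene of the second was Ifitm1, and Ifit1bl1 and Ifit3b are among the higher genes over control. Without LATS1/2-Sox9-KO replicate 1, 40 genes were higher and 2 lower in LATS1/2-Sox9-KO over control, with a median of 2.92, and 28 were higher and 0 lower in LATS1/2-Sox9-KO over LATS1/2-KO, with a median of 1.09. Of all tested genes, 27.2% and 1.89% were then called higher. The count of higher genes between the deletion labels depended on other libraries too. It was 9 without LATS1/2-KO replicate 3, 19 without LATS1/2-KO replicate 2 and 15 without LATS1/2-Sox9-KO replicate 2, when 1.03%, 1.86% and 0.701% of all tested genes were called higher. The genes called in this comparison in all 18 fits with no fold threshold were Ifi35, Trim25, Ifit3, Ifit1bl1, Ifit3b, Ifit1, Isg15, Oasl1 and Oas3, 9 of the 35, and each of the other 26 lost the call in at least 1 fit. Of the 35 higher in LATS1/2-KO over control, 33 were called in all 18 fits, and of the 42 higher in LATS1/2-Sox9-KO over control, 40 were. Both sets include Ifit1bl1 and Ifit3b, with the limit given above.

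**Figure D1:**
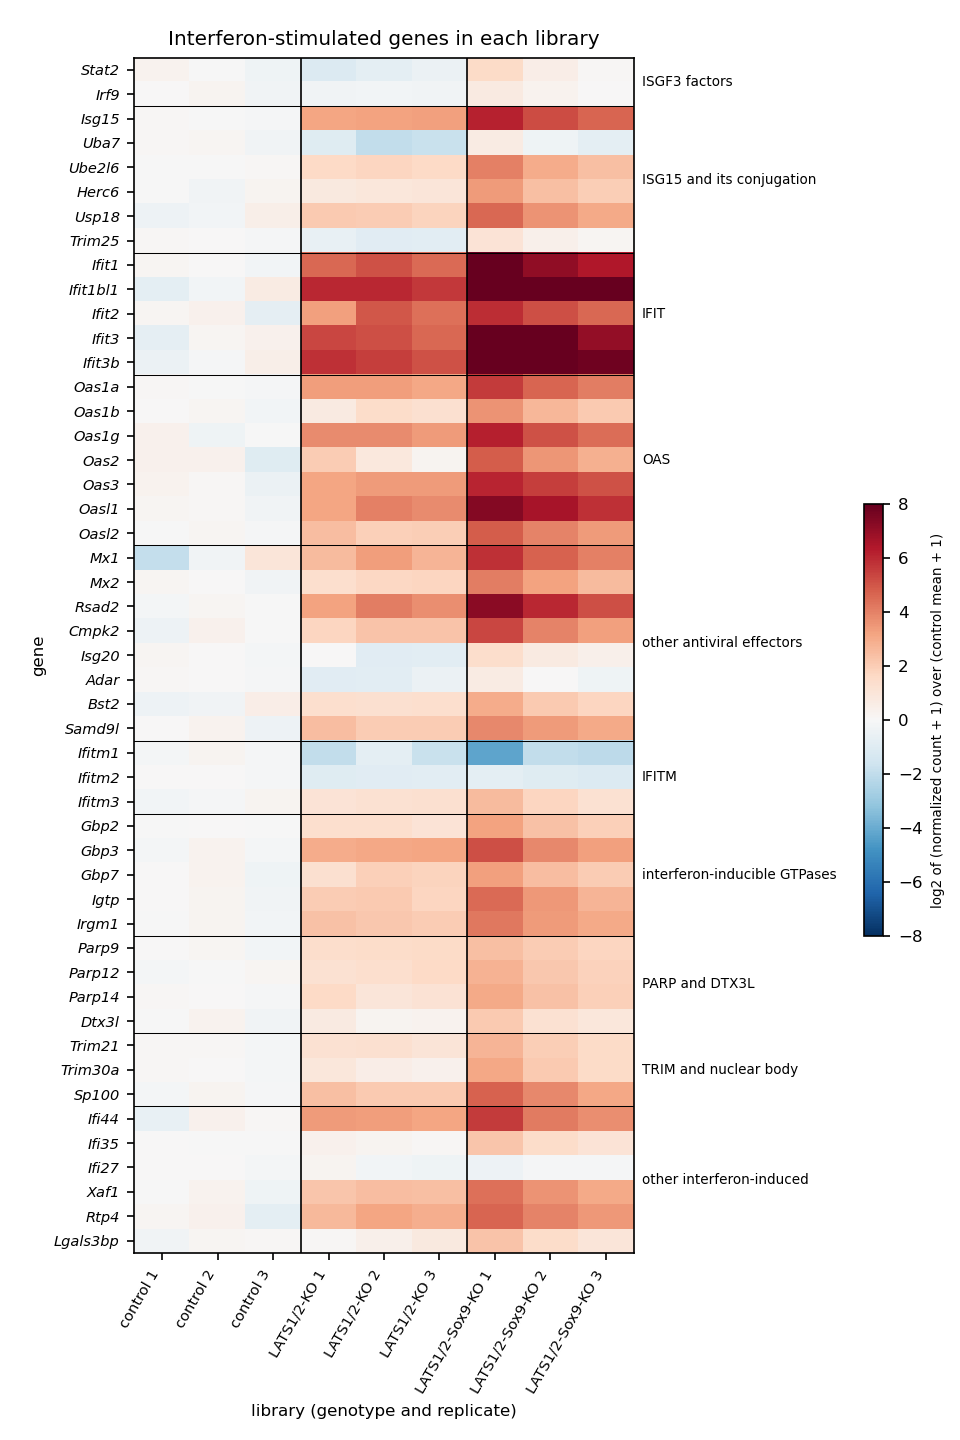
The 49 genes (rows, by role) in the 9 libraries (columns), coloured by the log2 ratio of normalized count plus 1 to the control mean plus 1, with values past 8 drawn in the end colour. In 35 of the 49 rows the control libraries lie below all LATS1/2-KO libraries and these below all LATS1/2-Sox9-KO libraries.

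The libraries separated by genotype for most of the genes. All libraries labelled LATS1/2-KO were above all control libraries for 37 of the 49 genes and below them for 6, compared with 31.3% and 30.3% of all tested genes. The libraries labelled LATS1/2-Sox9-KO were all above control for 42 and below for 2 (34.9% and 33.8% of all tested genes), and all above LATS1/2-KO for 44 and below for 1 (14.6% and 13.3%). The graded order, with control below LATS1/2-KO below LATS1/2-Sox9-KO and no overlap between groups, held for 35 of the 49 genes and for 6.17% of all tested genes. By group means alone the order held for 40 genes. In 5 genes LATS1/2-KO was below control and LATS1/2-Sox9-KO above it, in 3 the means fell from control to LATS1/2-KO to LATS1/2-Sox9-KO, and in Uba7 LATS1/2-KO was the lowest and control the highest.

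Stat2 and Irf9, the ISGF3 factors on the list, did not pass edgeR's test over control in either label, whereas DESeq2 called Stat2 in both. Stat2 (chr10:128270559-128292849, plus strand, ENSMUSG00000040033, all gene positions from GENCODE M21 on GRCm38), which carries the transactivation domain of ISGF3, counted 5737, 4725 and 3781 in control, 2237, 2801 and 3364 in LATS1/2-KO and 13673, 6767 and 5028 in LATS1/2-Sox9-KO libraries. The LATS1/2-KO libraries were all below control, and the LATS1/2-Sox9-KO libraries overlapped control. Its log2 fold change was -0.76 ± 0.33 in LATS1/2-KO over control (adjusted p 0.0765) and 0.84 ± 0.33 in LATS1/2-Sox9-KO over control (adjusted p 0.0530), and it was higher by 1.6 ± 0.34 between the deletion labels (adjusted p 0.0259). In DESeq2 it was lower in LATS1/2-KO over control (-0.80, adjusted p 0.0330) and higher in LATS1/2-Sox9-KO over control (0.81, adjusted p 0.0280) and between the labels. All 3 calls turned on 1 library or another. The first passed without LATS1/2-Sox9-KO replicate 1 or 3 (adjusted p 0.00952 and 0.0395), the second passed without LATS1/2-Sox9-KO replicate 3 (0.0121), and the third was lost without LATS1/2-KO replicate 1, 2 or 3 or LATS1/2-Sox9-KO replicate 2 (0.0546, 0.0687, 0.0726 and 0.0607).

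Irf9 (chr14:55603571-55610030, plus strand, ENSMUSG00000002325), the DNA-binding subunit, counted 4776, 5359 and 3757 in control, 3763, 3985 and 3862 in LATS1/2-KO and 7679, 5636 and 4774 in LATS1/2-Sox9-KO libraries. Groups overlapped against control, and the LATS1/2-Sox9-KO libraries were all above those labelled LATS1/2-KO. Its log2 fold changes were -0.26 ± 0.18, 0.38 ± 0.18 and 0.64 ± 0.18 in the 3 comparisons in the order above, with adjusted p of 0.247, 0.0941 and 0.0643. DESeq2 called the last (0.65, adjusted p 0.0199). Without LATS1/2-Sox9-KO replicate 3 the second and the third passed (adjusted p 0.0318 and 0.0445), and without control replicate 3 the last did (0.0413).

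Isg15 and the enzymes that attach and remove it did not move together in LATS1/2-KO over control. In that comparison 4 of the 6 genes were higher and 2, Uba7 and Trim25, were lower. Isg15 (chr4:156199424-156200818, minus strand, ENSMUSG00000035692), a ubiquitin-like protein that is conjugated to other proteins, counted 531, 499 and 468 in control, 4419.9, 4622 and 4967 in LATS1/2-KO and 35543, 19033 and 12633 in LATS1/2-Sox9-KO libraries. The 3 groups did not overlap. It was higher by 3.22 ± 0.32 on the log2 scale in LATS1/2-KO over control (adjusted p 3.04e-05), by 5.49 ± 0.36 in LATS1/2-Sox9-KO over control (2.14e-06) and by 2.26 ± 0.31 between the deletion labels (0.00570). Without LATS1/2-Sox9-KO replicate 1 the last change was 1.79 (adjusted p 0.00273).

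Usp18 (chr6:121245906-121270917, plus strand, ENSMUSG00000030107), the protease that removes ISG15 and also damps signalling at the interferon receptor, counted 770.1, 885 and 1415 in control, 4328, 4228 and 3561 in LATS1/2-KO and 24760.3, 12247 and 8348 in LATS1/2-Sox9-KO libraries. Groups again did not overlap, and the log2 fold changes were 1.98 ± 0.37, 3.89 ± 0.40 and 1.90 ± 0.37 (adjusted p 0.00147, 3.12e-05 and 0.0200). The last call was lost without LATS1/2-KO replicate 2 or 3 or LATS1/2-Sox9-KO replicate 2 (adjusted p 0.0556, 0.0856 and 0.0544). Ube2l6, the conjugating enzyme, was higher in the 3 comparisons by 1.63, 3.28 and 1.66, and Herc6, the mouse ligase, by 0.88, 2.74 and 1.86. The first of the Herc6 calls was near the threshold, with an adjusted p of 0.0396 that became 0.0940 and 0.125 without control replicate 1 or 2 and 0.0625, 0.0858 and 0.0916 without each LATS1/2-KO replicate in turn.

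Uba7, the activating enzyme that begins ISG15 conjugation, counted 1988, 2064 and 1523 in control, 958, 481 and 538 in LATS1/2-KO and 2975, 1474 and 1062 in LATS1/2-Sox9-KO libraries. It fell in LATS1/2-KO (-1.50 ± 0.38, adjusted p 0.00764), and LATS1/2-Sox9-KO libraries lay on both sides of control (-0.017 ± 0.37, adjusted p 0.973). Between the deletion labels it was higher (1.48 ± 0.38, adjusted p 0.0498), a call lost in 12 of 17 alternatives. Trim25, a ubiquitin ligase that activates the RNA sensor RIG-I, counted 7859, 7484 and 6907 in control, 4879, 3972 and 4199 in LATS1/2-KO and 16165, 9769 and 8179 in LATS1/2-Sox9-KO libraries. It was lower in LATS1/2-KO over control (-0.77 ± 0.22, adjusted p 0.0127) and higher in LATS1/2-Sox9-KO over LATS1/2-KO (1.39 ± 0.22, 0.00954). Its increase in LATS1/2-Sox9-KO over control (0.62 ± 0.22, 0.0330) lost the call without LATS1/2-Sox9-KO replicate 1 (0.29, adjusted p 0.0758) and without each control replicate in turn (0.0579, 0.0759 and 0.0814).

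The IFIT genes, whose proteins bind viral RNA and block its translation, were all 5 higher in both deletion labels over control, and held the 5 largest log2 fold changes of the list in LATS1/2-KO over control and the 4 largest in LATS1/2-Sox9-KO over control. They lie together on chromosome 19. Ifit1bl1 (chr19:34592891-34601956, minus strand, ENSMUSG00000079339) counted 3.48, 5.67 and 11.2 in control, 504, 517 and 387 in LATS1/2-KO and 12887, 7288 and 4219 in LATS1/2-Sox9-KO libraries. It had few reads in control and rose in graded steps, with log2 fold changes of 6.11 ± 0.54, 10.22 ± 0.57 and 4.11 ± 0.39 (adjusted p 0.00141 for the last). These were the largest changes of the 49 genes in each comparison. Its raw control counts were 3, 5 and 9, so it met the minimum of 10 counts only through the deletion libraries. The changes of Ifit1bl1 over control are therefore given without p-values.

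Ifit3b (chr19:34607970-34613401, plus strand, ENSMUSG00000062488) counted 9.28, 12.5 and 18.7 in control, 846, 682 and 499 in LATS1/2-KO and 12665, 6091 and 3167 in LATS1/2-Sox9-KO libraries. Ifit3 (chr19:34583531-34588731, plus strand, ENSMUSG00000074896) counted 39.4, 73.7 and 85.9 in control, 2725, 2366 and 1638 in LATS1/2-KO and 37636, 16846 and 8879 in LATS1/2-Sox9-KO libraries. The groups did not overlap for either gene. Raw control counts of Ifit3b were 8, 11 and 15, so it met the count minimum only with the deletion libraries. The log2 fold changes of Ifit3b and Ifit3 were 5.64 ± 0.60 and 5.08 ± 0.57 in LATS1/2-KO over control, 9.08 ± 0.64 and 8.32 ± 0.64 in LATS1/2-Sox9-KO over control, and 3.43 ± 0.46 and 3.24 ± 0.49 between the deletion labels. They were 8.44 and 7.62 over control and 2.80 and 2.54 between the labels without LATS1/2-Sox9-KO replicate 1. Of all 50-base stretches in their transcripts, 51.2% of those of Ifit3 also occurred in Ifit3b and 44.5% of those of Ifit3b in Ifit3. Reads from such stretches may not align uniquely and may then go uncounted, so both genes are uncertain in level.

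Ifit1 (chr19:34640871-34650009, plus strand, ENSMUSG00000034459), the founding member of the family, counted 198, 176 and 149 in control, 4238, 6069.8 and 3997 in LATS1/2-KO and 43772, 23575 and 14794 in LATS1/2-Sox9-KO libraries. It was higher by 4.77 ± 0.40, 7.29 ± 0.44 and 2.52 ± 0.35 in the 3 comparisons (adjusted p 1.09e-05, 1.57e-06 and 0.00621), and by 2.03 in the last without LATS1/2-Sox9-KO replicate 1. Ifit2 (chr19:34550694-34576419, plus strand, ENSMUSG00000045932) was the family member in which the deletion labels overlapped. It counted 300.4, 345 and 167 in control, 2615, 8402 and 5728 in LATS1/2-KO and 16592, 9866 and 6554 in LATS1/2-Sox9-KO libraries, with 4.36 ± 0.52 and 5.34 ± 0.54 over control (adjusted p 9.85e-05 and 3.08e-05) and 0.98 ± 0.45 between the labels (adjusted p 0.237).

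**Figure D2:**
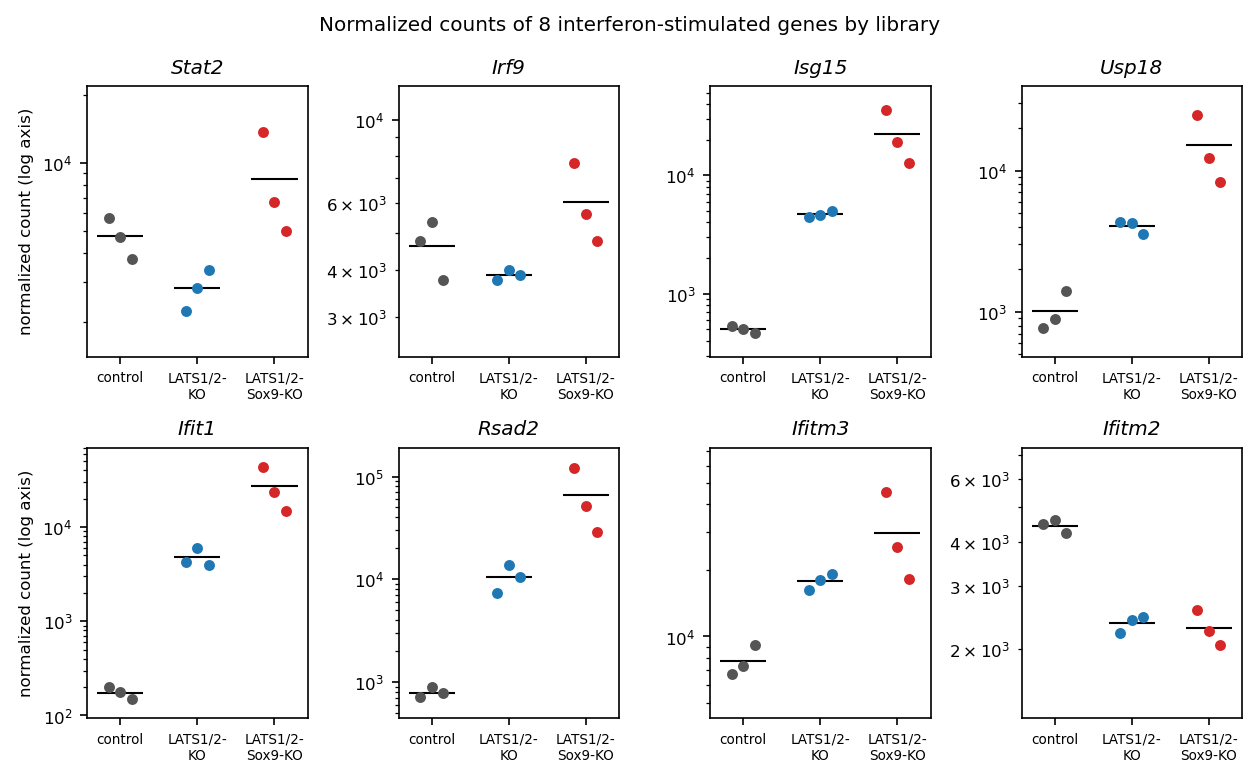
Normalized counts (log axis, a separate range in each panel) of 8 of the genes, with a point for each library, replicates 1 to 3 from left to right, and a bar at the group mean. Isg15, Usp18, Ifit1 and Rsad2 separate the 3 groups, Stat2 and Irf9 do not, and Ifitm2 is lower in both deletion labels while Ifitm3 is higher.

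The OAS genes encode enzymes that sense double-stranded RNA and answer it by making short oligoadenylates, together with OAS-like proteins. Of 7 genes, 6 were higher in LATS1/2-KO over control, and all 7 were higher in LATS1/2-Sox9-KO over control and over LATS1/2-KO. Oasl1, an OAS-like protein known in mice to limit translation of IRF7, counted 153, 146 and 115 in control, 1232, 2247 and 1943 in LATS1/2-KO and 22825, 13676 and 8077 in LATS1/2-Sox9-KO libraries. Its log2 fold changes of 3.71 ± 0.39, 6.75 ± 0.44 and 3.04 ± 0.36 had adjusted p of 3.98e-05, 2.17e-06 and 0.00388. Oas3, the largest enzyme of the family, counted 217, 188 and 131 in control, 1597, 1888 and 1867 in LATS1/2-KO and 12060.4, 8347 and 6096 in LATS1/2-Sox9-KO libraries, and rose by 3.32 ± 0.27, 5.63 ± 0.30 and 2.31 ± 0.25. Both genes kept the 3 groups apart.

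Oas2 was the family member that did not pass in LATS1/2-KO over control. Its counts were 281, 281 and 112 in control, 934, 402 and 266 in LATS1/2-KO and 6573, 2588 and 1621 in LATS1/2-Sox9-KO libraries, and control and LATS1/2-KO overlapped (1.24 ± 0.62, adjusted p 0.116, and 0.58, adjusted p 0.447, without LATS1/2-KO replicate 1). In that comparison Oas2 passed as higher in 1 of 17 alternatives, at an adjusted p of 0.00560. It was higher by 4.0 ± 0.67 in LATS1/2-Sox9-KO over control (adjusted p 0.000711) and by 2.75 ± 0.63 over LATS1/2-KO (adjusted p 0.0356). These were 3.24 and 2.01 without LATS1/2-Sox9-KO replicate 1, and the last was 3.43 without LATS1/2-KO replicate 1. The last call was lost without control replicate 1 or 2 (adjusted p 0.0560 and 0.0598), LATS1/2-KO replicate 2 or 3 (0.106 and 0.118) or LATS1/2-Sox9-KO replicate 1 or 2 (0.0936 and 0.0874). Oas1g counted 66.1, 40.8 and 51.0 in control, 743, 744 and 580.0 in LATS1/2-KO and 3925, 1845 and 1196 in LATS1/2-Sox9-KO libraries (3.71 ± 0.43, 5.46 ± 0.46 and 1.75 ± 0.38, the last 2 becoming 4.87 and 1.17 without LATS1/2-Sox9-KO replicate 1), and its neighbour Oas1a had changes of 3.27, 4.90 and 1.63. These 2 genes share 57.6% of the 50-base stretches of Oas1a and 45.2% of those of Oas1g, and are uncertain for the same reason as Ifit3. Oasl2 (2.15, 4.18 and 2.03) and Oas1b (1.21, 2.91 and 1.71) completed the family, and Oas1b lost its first call without control replicate 3 or LATS1/2-KO replicate 2 (adjusted p 0.0579 and 0.0598).

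Of the 8 other antiviral effectors, 6 were higher and 1 lower in LATS1/2-KO over control, 7 were higher in LATS1/2-Sox9-KO over control, and 6 were higher between the deletion labels. Rsad2 (chr12:26442746-26456452, minus strand, ENSMUSG00000020641) encodes viperin, which makes a chain-terminating nucleotide. It counted 712, 889 and 777 in control, 7298, 13757 and 10651 in LATS1/2-KO and 119645, 51244 and 28642 in LATS1/2-Sox9-KO libraries. The groups did not overlap, and the log2 fold changes were 3.74 ± 0.49, 6.39 ± 0.56 and 2.65 ± 0.47 (adjusted p 0.000174, 1.19e-05 and 0.0143). The second became 5.67 and the last 1.94 (adjusted p 0.0135) without LATS1/2-Sox9-KO replicate 1. The last lost the call without LATS1/2-KO replicate 3 (2.66, adjusted p 0.0651). Cmpk2, the neighbouring gene on chromosome 12 and a mitochondrial nucleotide kinase, counted 428, 718 and 569 in control, 1914, 2762 and 2769 in LATS1/2-KO and 23554, 8953 and 5543 in LATS1/2-Sox9-KO libraries (2.12 ± 0.47, 4.47 ± 0.52 and 2.35 ± 0.47), and its last 2 changes were 3.68 and 1.57 without LATS1/2-Sox9-KO replicate 1. Its last call was lost without LATS1/2-KO replicate 2 or 3 or LATS1/2-Sox9-KO replicate 2 (adjusted p 0.0595, 0.0827 and 0.0594).

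The Mx GTPases, which trap viral nucleoprotein, were higher in LATS1/2-KO and in LATS1/2-Sox9-KO than in control. Mx2 changed by 1.59 and 3.42, and Mx1 by 2.93 and 5.07, with 20.9, 64.6 and 156 normalized counts of Mx1 in the control libraries. Without control replicate 3, the highest of these, Mx1 changed by 3.81 and 5.98. Mx1 had, without LATS1/2-Sox9-KO replicate 1, 4.46 over control and 1.53 in place of 2.15 between the deletion labels, where it did not pass with all 9 libraries. Bst2, or tetherin, which holds budding virus at the cell surface, changed by 1.32 and 2.37, and Samd9l by 2.18 and 3.48. Adar, which edits double-stranded RNA, was lower in LATS1/2-KO over control (-0.73 ± 0.23, adjusted p 0.0229) and did not pass in LATS1/2-Sox9-KO over control (0.19 ± 0.23, adjusted p 0.512). Between the deletion labels it was higher (0.92 ± 0.23, adjusted p 0.0479), a call lost in 10 of 17 alternatives. The Adar call in LATS1/2-KO over control was lost without control replicate 1 or 2 or LATS1/2-KO replicate 1 or 2 (adjusted p 0.0623, 0.0518, 0.0752 and 0.0680), and 16.8% of the exon bases of Adar overlap Chrnb2 on the opposite strand. Isg20, an RNA exonuclease, was higher in LATS1/2-Sox9-KO over control (0.90 ± 0.30, adjusted p 0.0267), though not without control replicate 2 or 3 or LATS1/2-Sox9-KO replicate 1 (adjusted p 0.0662, 0.0737 and 0.0970).

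The 3 IFITM genes, neighbours on chromosome 7 whose proteins stop viral membranes from fusing, went in different directions. Ifitm3 counted 6778, 7311 and 9148 in control, 16251, 18079 and 19175 in LATS1/2-KO and 45424, 25549 and 18344 in LATS1/2-Sox9-KO libraries and was higher over control by 1.2 ± 0.28 and 1.94 ± 0.29 (adjusted p 0.00468 and 0.000268). Ifitm2 counted 4489, 4580.2 and 4233 in control, 2223, 2406 and 2459 in LATS1/2-KO and 2569, 2250.0 and 2050.3 in LATS1/2-Sox9-KO libraries, with both deletion labels below all control libraries. It was lower, with log2 fold changes of -0.91 ± 0.11 and -0.95 ± 0.11 (adjusted p 8.38e-05 and 5.14e-05), and the deletion labels did not separate (-0.045 ± 0.11, adjusted p 0.851). Its promoter holds the core of the response element, from 46 bases before the start. Of its exon bases 40.9% overlap Gm45717 on the same strand, so part of its reads could have been left uncounted. Ifitm1 was barely detected, with 30.2, 40.8 and 32.4 in control and 0.928, 7.97 and 7.29 in LATS1/2-Sox9-KO libraries (-2.65 ± 0.72). It met the count minimum only with the control libraries, where it was highest, so no p-value is given for it.

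All 5 interferon-inducible GTPases, which attack the vacuoles of intracellular pathogens, were higher over control in both labels. Irgm1 changed by 2.19 in LATS1/2-KO and 3.65 in LATS1/2-Sox9-KO over control, Igtp by 1.96 and 3.78, and the guanylate-binding proteins Gbp3 by 3.06 and 4.32, Gbp7 by 1.67 and 2.70 and Gbp2 by 1.27 and 2.6. Between the deletion labels Irgm1, Igtp and Gbp2 passed edgeR's test and Gbp3 and Gbp7 did not, at 1.25 and 1.03 (adjusted p 0.0923 and 0.0802). DESeq2 called Gbp3 and Gbp7 higher there (adjusted p 0.00856 and 0.0108). The calls of Irgm1, Igtp and Gbp2 were lost in 1, 4 and 5 of 17 alternatives. With LATS1/2-Sox9-KO replicate 1 left out, Gbp3 had 3.61 over control and 0.56 between the labels, and Igtp had 3.17 over control and 1.22 in place of 1.83 between the labels. All 5 kept the LATS1/2-Sox9-KO libraries above those labelled LATS1/2-KO. Of their 50-base stretches, Gbp7 shares 12.7% and Igtp 11.8% with other genes.

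Parp9, Parp12 and Parp14, which add or read ADP-ribose on proteins, were higher over control by 1.46, 1.38 and 1.27 in LATS1/2-KO and by 2.08, 2.33 and 2.52 in LATS1/2-Sox9-KO. Dtx3l, the ubiquitin ligase that pairs with PARP9, was higher in LATS1/2-Sox9-KO over control (1.51 ± 0.29, adjusted p 0.00140) and had 0.42 ± 0.28 in LATS1/2-KO over control (adjusted p 0.236). Parp9 and Dtx3l start next to each other on opposite strands and overlap in 9.4% and 8.0% of their exon bases. Since the library kit named in the labels does not mark strand, reads in that overlap cannot be assigned to either gene. Of the TRIM and nuclear body genes, the cytosolic antibody receptor Trim21 (1.18 and 2.16) and the nuclear body protein Sp100 (2.21 and 4.03) were higher in both labels over control. Trim30a was higher in LATS1/2-Sox9-KO over control (2.38 ± 0.34, adjusted p 0.000213) and had 0.59 ± 0.32 in LATS1/2-KO over control (adjusted p 0.148), which passed without LATS1/2-Sox9-KO replicate 1 (adjusted p 0.0232).

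Of the 6 other interferon-induced genes, 3 were higher in LATS1/2-KO over control, which were Ifi44 (3.31), Rtp4 (2.91) and the apoptosis factor Xaf1 (2.36). In LATS1/2-Sox9-KO over control 5 were higher, the same 3 with 4.72, 4.11 and 3.79, joined by Ifi35 (1.67) and the secreted glycoprotein gene Lgals3bp (1.69). Without LATS1/2-Sox9-KO replicate 1, Ifi44 had 3.98 over control and 0.68 in place of 1.40 between the deletion labels, where it did not pass with all 9 libraries. Ifi35 counted 2689.7, 2641 and 2597 in control, 3307, 3044 and 2793 in LATS1/2-KO and 12047, 7438 and 5708 in LATS1/2-Sox9-KO libraries, and so passed between the deletion labels (1.46 ± 0.23, adjusted p 0.00898) without passing in LATS1/2-KO over control (0.21 ± 0.22, adjusted p 0.463). The gene Gm11626 overlaps 16.8% of the exon bases of Ifi35 on the opposite strand. Ifi27 counted 5154, 5152 and 4528 in control, 5781, 4178 and 3863 in LATS1/2-KO and 3724, 4685 and 4599.8 in LATS1/2-Sox9-KO libraries and passed in none of the 3 comparisons (adjusted p 0.614, 0.335 and 0.798). Ifi27 and Irf9 were the only 2 of the 49 genes called in no comparison.

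**Figure D3:**
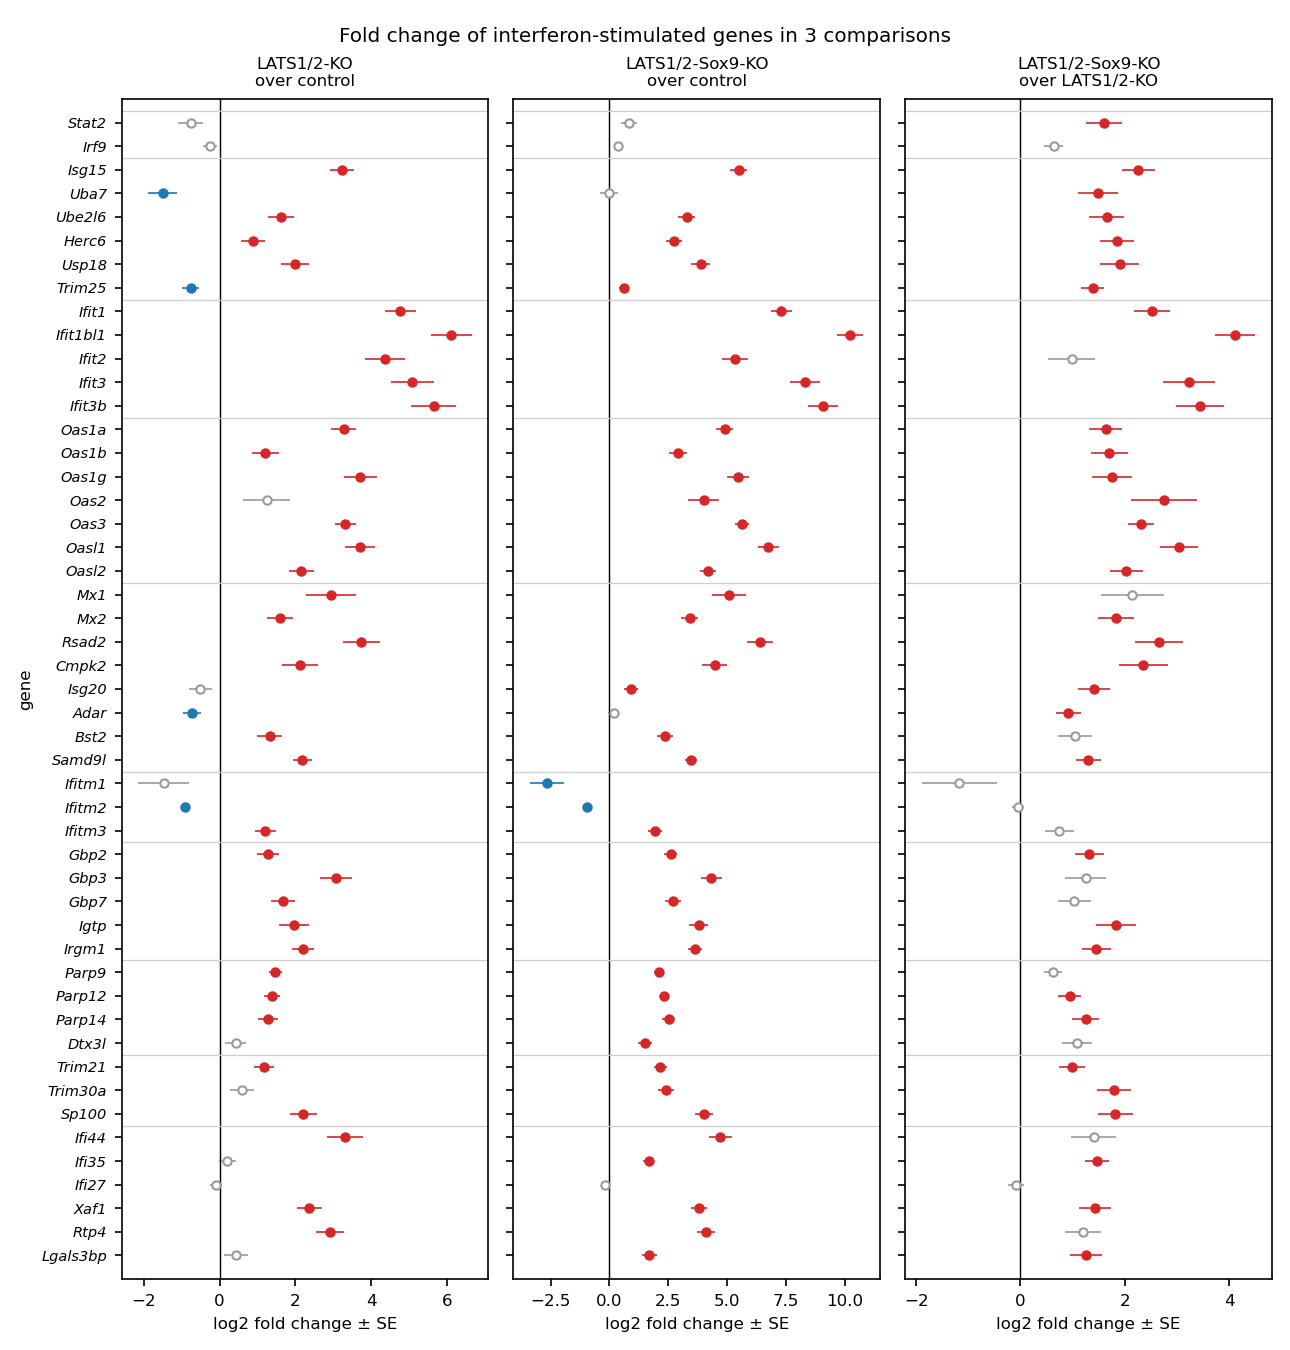
Log2 fold change (points, with SE bars) of the 49 genes in the 3 comparisons, each panel with its own range. Red points were called higher and blue points lower at an adjusted p of at most 0.05, and open grey points were not called, which leaves 35, 42 and 35 red points and 4, 2 and 0 blue points.

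By their calls in the 3 comparisons, 26 of the 49 genes were higher in all of them. Of all tested genes 3.20% were higher between the deletion labels, so at most that share was higher in all 3 comparisons. The shares of all tested genes with the other patterns of calls were not computed. A further 9 were higher over control in both labels without passing between the labels, which were Bst2, Gbp3, Gbp7, Ifi44, Ifit2, Ifitm3, Mx1, Parp9 and Rtp4. Apart from Ifit2 and Ifitm3, DESeq2 called these between the labels too. Another 5 passed in LATS1/2-Sox9-KO over control and over LATS1/2-KO without passing in LATS1/2-KO over control, namely Ifi35, Isg20, Lgals3bp, Oas2 and Trim30a. A call in 1 comparison and not in another does not show that the changes differ.

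Of all counts, the 49 genes took 0.152% ± 0.00735 (SD, n = 3) in control. They took 0.337% ± 0.00731 (SD, n = 3) under the label LATS1/2-KO and 0.937% ± 0.461 (SD, n = 3) under the label LATS1/2-Sox9-KO. The last group spread widely, at 1.45%, 0.803% and 0.558% in replicates 1, 2 and 3, and its lowest library was above the highest labelled LATS1/2-KO, at 0.345%. An exact permutation test of 3 against 3 libraries cannot go below a two-sided p of 0.1. Of the 49 genes, 47 were in the same order within LATS1/2-Sox9-KO, replicate 1 above replicate 2 above replicate 3, compared with 22.1% of all tested genes. The normalized count in replicate 1 was a median of 1.81 times that in replicate 2 and 2.72 times that in replicate 3. The exceptions were Ifi27 and Ifitm1. The median coefficient of variation of the 49 genes was 16.0% in control, 15.3% in LATS1/2-KO and 51.0% in LATS1/2-Sox9-KO libraries, whereas over all tested genes it was 16.2%, 21.3% and 15.1%. The replicate numbers carry no order.

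**Figure D4:**
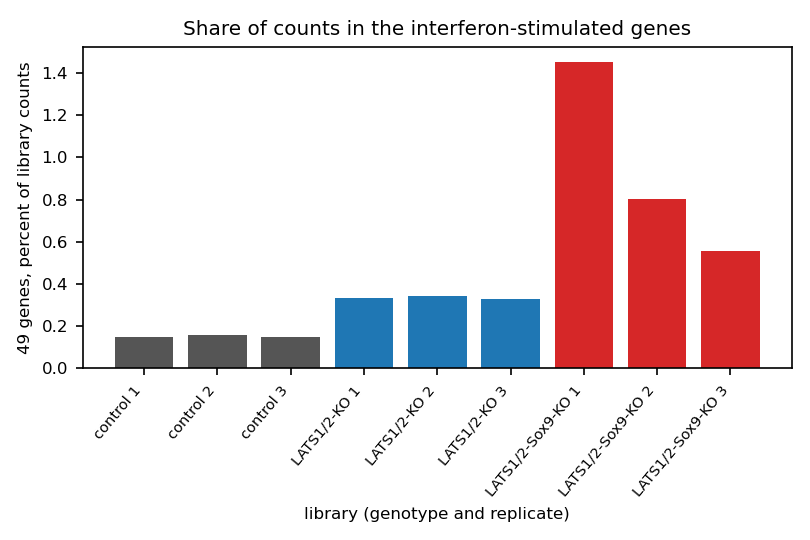
Percent of all counts of each library (bars) that fell on the 49 genes, by genotype and replicate, with controls in grey, LATS1/2-KO in blue and LATS1/2-Sox9-KO in red. The bars stand near 0.152% in control and 0.337% in LATS1/2-KO, and run from 0.558% to 1.45% in LATS1/2-Sox9-KO.

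Levels between genes were compared per length, as FPKM, counts scaled by exon length and library size. The median level of the 49 genes was 3.40 FPKM in control, 12.9 in LATS1/2-KO and 39.8 in LATS1/2-Sox9-KO libraries, and that of all tested genes was 3.08, 2.99 and 2.90. In control the highest mean levels were those of Ifitm3 (212 ± 34.1 FPKM, SD, n = 3), Ifitm2 (126 ± 5.11), Bst2 (116 ± 43.0) and Ifi27 (62.6 ± 4.57), so part of the list was well expressed in sorted control cells. Control replicates 1 and 2 had these genes in this order, and control replicate 3 did not. In LATS1/2-Sox9-KO the order by group means was Ifitm3 (816 ± 384 FPKM, SD, n = 3), Bst2 (601 ± 284), Isg15 (551 ± 291), Rsad2 (285 ± 203) and Ifit3 (225 ± 158). Although the SDs of neighbours overlapped, each of the 3 libraries had these 5 genes in this same order among themselves. In a single library another gene of the 49 could lie above Ifit3, whose level is uncertain as given above. Isg15 ranked 12 of the 49 in control, at 12.3 ± 0.777 FPKM, and 3 in LATS1/2-KO, at 115 ± 6.80 FPKM. Ifit1bl1 was the lowest of the 49 in control at 0.0558 ± 0.0327 FPKM, and reached 66.8 ± 36.1 FPKM in LATS1/2-Sox9-KO.

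The genes upstream of the 49 were taken from 5 written lists, of interferon ligands, receptors, the JAK-STAT relay with its inhibitors, interferon regulatory factors, and nucleic acid sensors with their adaptors. Of their 36 tested genes together, 11 (30.6%) were higher and 13 (36.1%) lower in LATS1/2-KO over control, compared with 28.6% and 27.0% of all tested genes. The counts in LATS1/2-Sox9-KO over control were 14 (38.9%) higher and 10 (27.8%) lower, compared with 29.3% and 28.6%, and between the deletion labels 7 (19.4%) were higher and 0 lower, compared with 3.20% and 3.35%. The count of 7 fell to 1 without LATS1/2-KO replicate 3 and to 2 without LATS1/2-Sox9-KO replicate 2, when 1.03% and 0.701% of all tested genes were called higher. Of 21 listed ligand genes, 9 had no count in any library, and Ifnb1 alone passed the filter on low counts. DESeq2, fitted without that filter, called 2 ligand genes higher in LATS1/2-Sox9-KO over control. Ifnb1, which encodes interferon-β, counted 0, 0 and 0 in control, 8.02, 14.4 and 31.9 in LATS1/2-KO and 93.8, 7.97 and 15.5 in LATS1/2-Sox9-KO libraries. Against a floor of 3 counts per control library its mean was at least 5.12-fold higher in LATS1/2-KO and at least 11.0-fold higher in LATS1/2-Sox9-KO. With 0 counts in control, Ifnb1 passed the filter only through the deletion libraries, so no p-value over control is given for it. It is still 1 of the genes counted as higher over control in the pathway totals above. Its largest value was again in LATS1/2-Sox9-KO replicate 1, and the deletion labels overlapped (log2 fold change 1.10 ± 0.98, adjusted p 0.564, turning to -0.59 without that library). The bounds were 3.17 without LATS1/2-KO replicate 3 and 3.31 without LATS1/2-Sox9-KO replicate 1. All ligand genes summed to between 3.48 and 137 normalized counts in a library, so ligand transcripts were scarce in the sorted cells.

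Of the 6 receptor genes, 3 (50%) were higher and 1 (16.7%) lower in LATS1/2-KO over control, compared with 28.6% and 27.0% of all tested genes. In LATS1/2-Sox9-KO over control 3 (50%) were higher and 2 (33.3%) lower, compared with 29.3% and 28.6%. Between the labels 0 passed edgeR's test (2 at an unadjusted p under 0.05, 0 in DESeq2), where 3.20% of all tested genes were higher and 3.35% lower. Ifnar1, the type I receptor chain, counted 2629, 2493 and 2721 in control, 3619, 4147 and 3810.4 in LATS1/2-KO and 3156, 3251 and 3269 in LATS1/2-Sox9-KO libraries, a change of 0.56 ± 0.094 and 0.30 ± 0.094 over control (adjusted p 0.000651 and 0.0188). Its partner Ifnar2 had -0.13 ± 0.13 (adjusted p 0.413) and -0.37 ± 0.13 (0.0305). The type III receptor chain Ifnlr1 fell in both labels (-1.31 ± 0.12 and -1.24 ± 0.12), while Il10rb, with which it pairs, rose (1.29 ± 0.14 and 1.56 ± 0.14). Of the interferon-γ receptor, Ifngr1 rose (0.79 ± 0.10 and 0.53 ± 0.10) and Ifngr2 did not pass (0.45 ± 0.19 and 0.29 ± 0.19, adjusted p 0.0712 and 0.231).

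The 10 genes of the relay and its inhibitors were lower or not called over control, with 0 higher and 6 (60%) lower in LATS1/2-KO and 0 higher and 6 (60%) lower in LATS1/2-Sox9-KO. Of all tested genes, 28.6% were higher and 27.0% lower in the first comparison, and 29.3% and 28.6% in the second. Both relay counts of 0 higher in edgeR's test were also 0 at an unadjusted p under 0.05 and in DESeq2. Socs3, a feedback inhibitor induced by STAT3, fell in both labels (-3.59 ± 0.35 and -3.66 ± 0.36), with 33599.9, 27765 and 43199 in control, 3243, 2437 and 2998 in LATS1/2-KO and 4481, 2055 and 1749.8 in LATS1/2-Sox9-KO libraries. Stat3 (-1.78 and -2.18), the phosphatase gene Ptpn6 (-1.87 and -1.68) and Jak2 (-1.30 and -1.52) also fell. Socs1, the inhibitor most tied to interferon signalling, had -0.25 ± 0.34 and 0.072 ± 0.33 (adjusted p 0.558 and 0.868).

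Among 7 interferon regulatory factors, Irf7 alone (14.3%) was higher in LATS1/2-KO over control, and 4 (57.1%) were lower, compared with 28.6% and 27.0% of all tested genes. Irf7, which amplifies interferon production and is itself interferon-induced, counted 1074, 1183 and 992 in control, 5292, 5893 and 5544 in LATS1/2-KO and 33238, 14808 and 10738 in LATS1/2-Sox9-KO libraries. The groups did not overlap, and it was higher by 2.36 ± 0.35, 4.18 ± 0.38 and 1.81 ± 0.34 (adjusted p 0.000326, 1.30e-05 and 0.0176). Without LATS1/2-Sox9-KO replicate 1 the second was 3.58 and the last 1.22 (adjusted p 0.00539), and without LATS1/2-KO replicate 3 the last had an adjusted p of 0.0749. Irf8 was the most reduced, with 793, 637 and 566 in control, 30.1, 20.3 and 26.4 in LATS1/2-KO and 39.0, 11.0 and 15.5 in LATS1/2-Sox9-KO libraries (-4.70 ± 0.44 and -4.92 ± 0.45). Irf2 and Irf1 were lower in LATS1/2-KO over control (-1.30 and -0.91). In LATS1/2-Sox9-KO over control Irf7 and Irf5 (1.36) were higher and Irf8 was lower in edgeR's test, while DESeq2 called 2 factors lower. These edgeR calls were 28.6% and 14.3% of the list, compared with 29.3% and 28.6% of all tested genes.

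Of 12 sensors and adaptors, 6 (50%) were higher and 2 (16.7%) lower in LATS1/2-KO over control, compared with 28.6% and 27.0% of all tested genes. In LATS1/2-Sox9-KO over control 8 (66.7%) were higher and 1 (8.33%) lower, compared with 29.3% and 28.6%. Between the deletion labels 6 (50%) were higher, compared with 3.20%. Tlr3, the endosomal receptor of double-stranded RNA, counted 1525, 1772 and 1704 in control, 7288, 10999 and 7532 in LATS1/2-KO and 19649, 22425 and 16674 in LATS1/2-Sox9-KO libraries (2.37 ± 0.18, 3.55 ± 0.19 and 1.19 ± 0.17). Unlike the 49 genes as a group, its highest value was in LATS1/2-Sox9-KO replicate 2. Zbp1, a sensor of Z-form nucleic acid, changed by 2.55 ± 0.49, 4.52 ± 0.53 and 1.98 ± 0.47, and Eif2ak2, the kinase PKR, by 1.30 ± 0.12, 2.00 ± 0.13 and 0.70 ± 0.12. Dhx58 was higher in LATS1/2-Sox9-KO over control (2.41) and between the labels (1.66). The adaptor of TLR3, Ticam1, fell in both labels (-1.42 ± 0.16 and -0.95 ± 0.16).

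**Figure D5:**
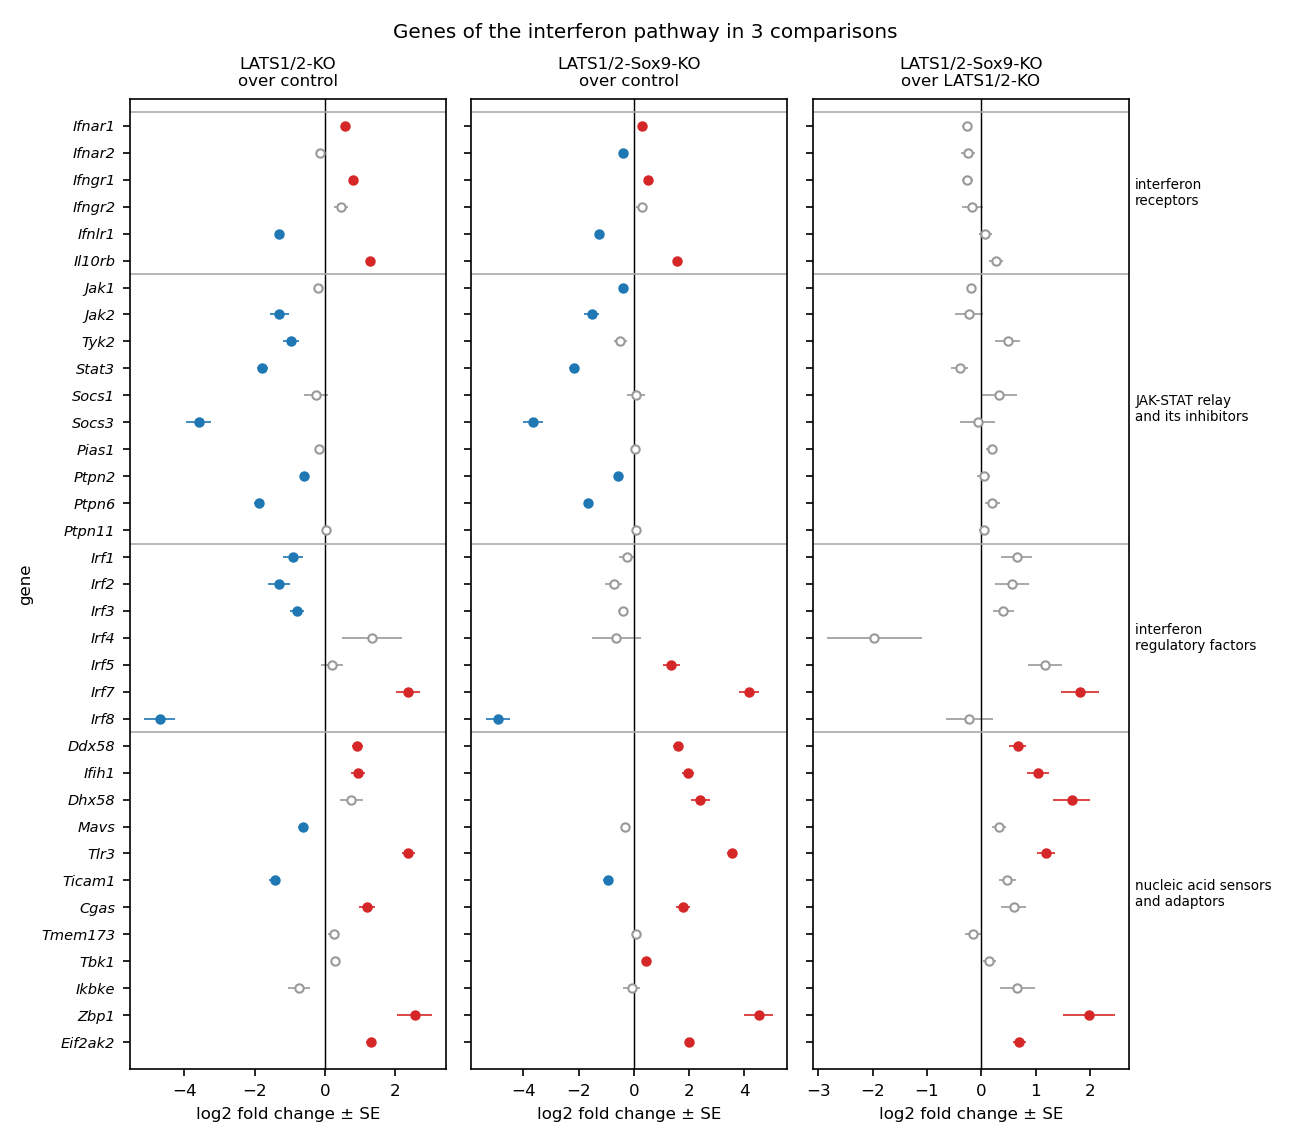
Log2 fold change (points, with SE bars) of the tested receptors, relay genes, regulatory factors and sensors in the 3 comparisons, each panel with its own range. Red points were called higher, blue lower and open grey points were not called. Irf7, Tlr3, Zbp1 and Eif2ak2 are red in all 3 panels, and Irf8, Socs3, Stat3 and Ticam1 are blue in both comparisons with control.

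A wider list of 69 interferon-stimulated genes outside the 49 had 62 tested genes. Of these 28 (45.2%) were higher and 11 (17.7%) lower in LATS1/2-KO over control, compared with 28.6% and 27.0% of all tested genes, with a median log2 fold change of 0.58. In LATS1/2-Sox9-KO over control 41 (66.1%) were higher and 4 (6.45%) lower, compared with 29.3% and 28.6%, with a median of 1.72. Between the deletion labels 25 (40.3%) were higher and 2 (3.23%) lower, compared with 3.20% and 3.35%, with a median of 0.96. The 25 became 16 without LATS1/2-Sox9-KO replicate 1, 9 without replicate 2 of that label, 11 and 4 without LATS1/2-KO replicates 2 and 3, and 15 without control replicate 2. In these fits 1.89%, 0.701%, 1.86%, 1.03% and 2.03% of all tested genes were called higher, in the same order. The GTPase gene Gbp9 had the largest increase in LATS1/2-KO over control (5.52 ± 0.51), and in LATS1/2-Sox9-KO over control it was Ifi205 (7.19 ± 0.88) with Tgtp1 (6.35 ± 0.72) and Apol9b (5.89 ± 0.47). Ifi202b, of the cytosolic DNA-binding Ifi200 family, moved against the list. It counted 3876, 3841 and 7128 in control, 1517, 1568 and 1061 in LATS1/2-KO and 129, 104 and 108 in LATS1/2-Sox9-KO libraries, with log2 fold changes of -1.84 ± 0.26, -5.44 ± 0.30 and -3.60 ± 0.28 (adjusted p 0.000199, 8.96e-07 and 0.000827). The groups did not overlap. The other 3 lower genes in LATS1/2-Sox9-KO over control, named after their values were seen, were Ifi203 (-2.95), Trim14 (-1.70) and Ly6e (-0.78), and Ifi203 was the second lower gene between the labels (-1.73). Of their 50-base stretches, Tgtp1 shares 79.4% with Tgtp2, Apol9b 52.3% with Apol9a and Ifi205 18.5% with Ifi211, so the counts of these genes are uncertain, whereas Ifi202b shares 0% with any other gene.

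Markers of other cells that an EYFP gate could hold were counted beside these results. Of 15 macrophage and dendritic cell markers 13 were tested, with 5 (38.5%) higher in LATS1/2-KO over control, where 28.6% of all tested genes were, 7 (53.8%) higher in LATS1/2-Sox9-KO over control, where 29.3% were, and 0 in either direction between the deletion labels in edgeR's test, also at an unadjusted p under 0.05 and in DESeq2. Their summed normalized count was 1287, 904 and 865 in control, 5488, 3560.2 and 2360.3 in LATS1/2-KO and 4029.7, 4049 and 5763 in LATS1/2-Sox9-KO libraries, so the LATS1/2-Sox9-KO libraries were not in the order of the 49 genes. Without Csf1r the sums were 1079.8, 776 and 726 in control, 2684, 1186 and 607 in LATS1/2-KO and 1314, 927 and 1888 in LATS1/2-Sox9-KO libraries, and LATS1/2-KO replicate 3 then lay below all control libraries. The most counted of them was Csf1r, at 208, 128 and 139 in control, 2804, 2374 and 1753 in LATS1/2-KO and 2716, 3122 and 3875 in LATS1/2-Sox9-KO libraries. It was higher over control by 3.87 ± 0.25 and 4.35 ± 0.26. The complement gene C1qb, a macrophage marker, had 10.4, 4.54 and 18.7 in control, 351, 123 and 82.1 in LATS1/2-KO and 138, 91.7 and 326 in LATS1/2-Sox9-KO libraries, and no count of Siglech, which marks plasmacytoid dendritic cells, was found in 7 of the 9 libraries. Pan-leukocyte markers, with 0 of 5 tested genes called in any comparison by edgeR, at an unadjusted p under 0.05 or by DESeq2, summed to 204, 154 and 94.6 in control, 462, 199.95 and 100.3 in LATS1/2-KO and 359, 109.6 and 339 in LATS1/2-Sox9-KO libraries, and Ptprc was the most counted.

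In the counts that follow, the shares of all tested genes were 28.6% higher and 27.0% lower in LATS1/2-KO over control. They were 29.3% and 28.6% in LATS1/2-Sox9-KO over control, and 3.20% and 3.35% between the deletion labels. Markers of T and NK cells summed to at most 43.6 normalized counts in a library, with Cd3e and Ncr1 at 0 in all 9, and markers of B cells to at most 99.8, with Ms4a1 at 0 in all 9 and 1 of 3 tested lower in both labels over control. Adipocyte markers were uneven among replicates, at 3.48, 12.5 and 8.71 in control, 7.02, 821 and 430.5 in LATS1/2-KO and 32.5, 212 and 158 in LATS1/2-Sox9-KO libraries. Of 4 tested, 3 (75%) were higher in LATS1/2-KO over control and 2 (50%) in LATS1/2-Sox9-KO over control, compared with 28.6% and 29.3% of all tested genes. Their median log2 fold changes were 7.74 and 5.96. With so few counts in control, the adipocyte markers met the count minimum only with the deletion libraries. Their calls over control therefore describe them and do not test them. Only 1 of the 4 had all libraries of a deletion label above control in either comparison, where 31.3% and 34.9% of all tested genes did. Fibroblast markers summed to 2401, 4246 and 9241 in control, 6038, 1473 and 2661 in LATS1/2-KO and 2123, 2699 and 4483 in LATS1/2-Sox9-KO libraries. Of 6 tested, 3 (50%) were higher in LATS1/2-KO over control, compared with 28.6% of all tested genes. They were Lum (2.62), Col1a1 (1.90) and Col1a2 (2.31). The collagen genes Col1a1 and Col1a2 were also higher in LATS1/2-Sox9-KO over control (2.37 and 2.56), where Pdgfra and Dcn (-4.79) were lower. Endothelial markers summed to 435, 408 and 661 in control, 732, 694 and 647 in LATS1/2-KO and 244, 772 and 757 in LATS1/2-Sox9-KO libraries, where of 6 tested Kdr was higher in both labels over control (2.43 and 3.37) and Tek lower in LATS1/2-Sox9-KO over control (-1.48) and over LATS1/2-KO (-2.27). Erythroid markers summed to at most 145, and of 2 tested 1 was lower in LATS1/2-KO over control and 2 in LATS1/2-Sox9-KO over control. The 6 basal markers summed to 3881, 5117 and 4601 in control, 262358, 156810.4 and 151809 in LATS1/2-KO and 121764, 248159 and 356134 in LATS1/2-Sox9-KO libraries, lowest of its group in the LATS1/2-Sox9-KO library in which the 49 genes were highest. Most of that sum was Krt14 in the deletion labels, and without it the sums were 2972, 4615 and 3995 in control, 9388, 16559.7 and 12303 in LATS1/2-KO and 4676, 8185 and 6454 in LATS1/2-Sox9-KO libraries. Of the 6 basal markers, 2 (33.3%) were higher and 2 (33.3%) lower in LATS1/2-KO over control, near the 28.6% and 27.0% of all tested genes. In LATS1/2-Sox9-KO over control 3 (50%) were higher and 3 (50%) lower, compared with 29.3% and 28.6%. Trp63, a transcription factor of basal cells, was lower in both labels (-4.82 and -4.19). The 12 luminal markers summed to 1132051, 1087126 and 1262977 in control, 992429.8, 986351 and 998299 in LATS1/2-KO and 1645047, 1496129.7 and 1390354 in LATS1/2-Sox9-KO libraries, highest of its group in that same library, with Krt18 the most counted and most of the 12 genes lower over control, as given above. The part of other cell types and of the change in lineage genes in the results for the 49 genes was not tested.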

How the data were processed

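The table holds counts of 9 libraries of sorted mammary cells. The authors aligned reads to mm10 with STAR 2.6.0c and counted uniquely aligned proper pairs per gene, mitochondrial genes left out, with featureCounts of Subread 1.6.2 on Ensembl annotation. Read trimming is not given in the sources used here. The deposited counts are raw and not normalized. Pairs were described as counted on the same strand, but the library kit does not mark strand, so overlapping genes on opposite strands cannot be told apart. Of 55450 genes, 55190 were named through GENCODE M21, which also gave positions and exon lengths on GRCm38.

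Libraries were grouped by their GEO labels. The members and all gene lists were chosen with earlier results of these data known, so the counts describe the lists and do not test them. Counts were fitted in edgeR 4.0.16 (R 4.3.3, limma 3.58.1) with filterByExpr, which kept 19357 genes, TMM factors, 3 group means over all 9 libraries and the robust quasi-likelihood test, with Benjamini-Hochberg adjustment. A gene was called at an adjusted p of at most 0.05. The SE of a log2 fold change was its size divided by the square root of F. The pipeline was tested on simulated data. No library pair was a duplicate, since pairs differed by more than counting noise. Full values are given for Stat2, Irf9, Isg15, Usp18 and Ifit1, for up to 8 called genes of the list with the largest absolute log2 fold change in each comparison, for Irf7 and Ifnb1, and for up to 4 called genes of each other list and comparison, and further genes were named after their values were seen.

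Alternatives were DESeq2 1.42.0, RLE and upper-quartile factors, factors without the 100 most counted genes, no filter on low counts, a filter of 10 counts in 3 libraries, fits of the 2 compared groups, the replicate number as a block, a test against a fold change of 2, and leaving out each library in turn. Floors cover counting error only. A further 3 genes of the pathway lists are not reported here and were left out of the list counts.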

Additional observations from a re-analysis of the deposited data

How the results depend on the processing

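The counts of the 49 genes over control stayed within 1.5 times of those given in every alternative without a fold threshold, from 33 to 36 higher and 3 to 6 lower in LATS1/2-KO and from 40 to 44 higher and 2 lower in LATS1/2-Sox9-KO. With the change above 2-fold the single lower gene became 2 in both comparisons with control without LATS1/2-Sox9-KO replicate 1, where leaving out a library gave 1 to 2, and a test against a fold change of 2 left 0 lower in LATS1/2-KO. Between the deletion labels the 35 higher genes ranged from 9 to 43 when a library was left out, and were 44 in DESeq2, 24 with no filter on low counts and 29 with those groups alone. Of all tested genes, 0.701% to 5.02% were higher between these labels when a library was left out. The shares were 5.89%, 2.01% and 2.66% in the last 3 fits. The 32 genes past 2-fold there ranged from 9 to 41, with 21 under no filter and 4 in the test against a fold change of 2. The median log2 fold change in LATS1/2-KO over control was 1.54 to 1.69 when a library was left out. For the pathway lists together the 7 higher genes between the deletion labels ranged from 1 to 9. For the 62 other interferon-stimulated genes the 25 higher ones ranged from 4 to 28, and were 38 in DESeq2 and 16 with those groups alone, while the 2 lower ones ranged from 1 to 3. Deviations from the group means had correlations from -0.066 to 0.17 between same-numbered libraries of 2 groups. Between differently numbered libraries they ran from -0.16 to 0.064. The largest, 0.17 and 0.10, were of replicates 2 and 1 of the deletion labels, and their replicates 3 had -0.032. Whether the replicate numbers pair libraries is therefore not settled, and the main fit did not pair them. With the replicate block 36 genes were higher and 5 lower in LATS1/2-KO over control, 42 and 2 in LATS1/2-Sox9-KO over control, and 30 and 0 between the deletion labels. That fit called 27.4%, 28.7% and 2.47% of all tested genes higher in the 3 comparisons.

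Directions of single genes reversed for genes not called in the comparison concerned. In LATS1/2-KO over control Ifi27 ranged from -0.29 to 0.018 when a library was left out. In LATS1/2-Sox9-KO over control Uba7 became 0.027 with no filter, and when a library was left out it ranged from -0.53 to 0.27 and Adar from -0.12 to 0.41. Between the deletion labels leaving out a library gave -0.20 to 0.11 for Ifi27, -0.11 to 0.048 for Ifitm2, -0.59 to 1.78 for Ifnb1 and -0.036 to 0.29 for Lats2. The cause was not tested. Of the single-gene values under alternatives, 2545 kept their direction and side of the threshold, 144 lost the call, 50 gained it and 12 reversed. Every library held at least 44167762 counts, and the median coefficient of variation of the 49 genes within LATS1/2-Sox9-KO was 51.0%. What limits the comparison of the deletion labels was not tested.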
